A study of Mus musculus with 20 samples.

Results

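The insulin-like growth factor (IGF) system was followed here through 9 genes: the binding proteins Igfbp2, Igfbp3, Igfbp4, Igfbp5 and Igfbp7, the ligands Igf1 and Igf2, and the receptors Igf1r and Igf2r. The members were chosen by gene symbol, with measured values of these data already known, and all 9 were found, out of 27998 genes in the single-cell RNA-seq (scRNA-seq) and 24062 genes in the RNA-seq of cultured neural stem cells (NSCs). The lower level of Igfbp2 in NSC-like cells after P5 is a value known at that choice. Which values brought in the other 8 members is not recorded, so differences between ages and classes in the scRNA-seq are given as a description with no test, and p-values of the knockdown are given as a description too. The single-cell ATAC-seq (scATAC-seq), which counts accessible DNA, was not part of the rule.

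The study asked how NSCs of the mouse dentate gyrus (DG) change between the neonate and the mature adult, and what lowering the histone methyltransferase Setd8 does to NSCs. Nestin-EGFP mice carry EGFP under Nestin control, and viable EGFP+ cells were sorted from the DG of the hippocampus at postnatal day 5 (P5), 12 weeks (12w) and 24 weeks (24w). There was 1 scRNA-seq and 1 scATAC-seq library per age, and the number of mice in each is not given in the sources used here, so age cannot be told apart from library. For the knockdown (KD), NSCs labelled as hippocampal, described in the study's methods as a long-passaged line from embryonic cortex kept in bFGF and EGF, were infected with a lentivirus for a scrambled or a Setd8 short hairpin RNA, selected with puromycin in all arms and collected 3 days after infection by the labels (2 days by the heading of a table of the study).

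After filtering, 12752 (P5), 5271 (12w) and 2794 (24w) cells were analysed, with a median of 4261, 2271 and 2178 unique molecular identifiers (UMIs, 1 per captured mRNA molecule) each. Sex also differed: Xist, expressed from the inactive X, was counted in 25.9% of P5, 92.4% of 12w and 0.0716% of 24w cells, and the Y-linked Ddx3y in 14.4%, 0% and 16.9%, so the part of sex in any difference between 12w and 24w cannot be told apart. Between 1.11% and 2.93% of the cells of each age had a barcode that also occurs at another age. Nestin control also labels vascular cells, which made up most of the later libraries: pericyte (PC)-like cells numbered 104, 2421 and 1735, and the summed level of 8 PC markers was 1127, 15221 and 25375 counts per 1000000 UMIs (CPM). Classes were named "-like" from marker genes, and the members took no part in the clustering. NSC-like cells numbered 1413, 367 and 110, and astrocyte (AS)-like cells 3317, 229 and 74. Cells left unnamed numbered 2720, 599 and 256. Among these was a cluster led by haemoglobin genes, with 275 cells of P5 and all 8 PC markers raised, so PC-like levels at P5 leave it out. At P5 the 10 NSC markers summed to 2711 CPM in NSC-like cells, above their 1504 CPM in AS-like ones, and the 9 AS markers to 3239 and 5167 CPM.

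As background, IGF1 and IGF2 are small secreted growth factors that signal through the receptor tyrosine kinase IGF1R, which acts through IRS adaptors, PI3 kinase and AKT. IGF2R, the mannose 6-phosphate receptor, carries no kinase and takes IGF2 up for degradation. The IGFBPs are secreted proteins that bind the ligands outside the cell, carrying them, storing them in the matrix or keeping them from the receptor; proteases such as PAPP-A and HTRA1 cleave them. IGFBP7 is a related protein with low affinity for IGFs, known from vessel walls. In the DG, IGF1 is known to promote the growth of progenitors and neurons.

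Igfbp2 and Igfbp5 are neighbours: in GENCODE vM21 on GRCm38, Igfbp2 lies on chromosome 1 from 72824503 to 72852474 on the plus strand and Igfbp5 from 72857932 to 72874884 on the minus strand, so they point toward each other with 5457 bases between them. Igfbp3 and Igfbp4 lie apart on chromosome 11, from 7206086 to 7213923 (minus) and from 99041244 to 99054392 (plus), and Igfbp7 on chromosome 5 from 77349240 to 77408041 (minus). RefSeq promoters on GRCm38.p6 matched all 9 members. The 250 bases before the RefSeq start of Igfbp2, Igfbp4 and Igfbp7 are shown because accessibility at these 3 start sites is compared between classes and ages in later paragraphs. Capitals mark the motifs searched on both strands. The TATA box was spelled TATAAA. The GC box was spelled GGGCGG. The CCAAT box was spelled as its name. The E-box was spelled CACGTG, and no 2 matches overlap in these windows. The windows are chr1:72824230-72824479 (plus strand) for Igfbp2, chr11:99040994-99041243 (plus) for Igfbp4 and chr5:77408046-77408295 (minus) for Igfbp7.
Igfbp2: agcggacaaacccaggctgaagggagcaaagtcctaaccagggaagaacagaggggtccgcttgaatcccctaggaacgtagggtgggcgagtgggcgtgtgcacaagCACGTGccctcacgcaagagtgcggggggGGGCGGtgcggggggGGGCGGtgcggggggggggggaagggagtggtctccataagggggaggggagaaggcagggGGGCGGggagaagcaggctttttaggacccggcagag
Igfbp4: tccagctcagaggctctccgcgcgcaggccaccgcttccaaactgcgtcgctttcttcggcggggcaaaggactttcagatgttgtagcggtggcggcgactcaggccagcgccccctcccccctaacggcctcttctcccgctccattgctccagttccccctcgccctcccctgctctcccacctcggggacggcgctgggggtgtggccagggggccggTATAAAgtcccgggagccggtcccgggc
Igfbp7: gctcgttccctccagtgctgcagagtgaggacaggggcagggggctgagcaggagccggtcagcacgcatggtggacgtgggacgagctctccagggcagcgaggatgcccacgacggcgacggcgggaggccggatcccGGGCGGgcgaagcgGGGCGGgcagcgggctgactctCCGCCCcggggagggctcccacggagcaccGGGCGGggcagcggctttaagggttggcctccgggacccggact
The Igfbp2 window held 3 GC boxes and 1 E-box, the Igfbp7 window 4 GC boxes and the Igfbp4 window 1 TATA box that ends 22 bases before the window's end. The windows of Igfbp3 and Igfbp5 held none of the 4 motifs. Among 32851 promoters of the same length, 12.4% held the TATA box, 32.7% the GC box, 33.8% the CCAAT box and 6.02% the E-box. The GC content was 67.2% for Igfbp2, 69.2% for Igfbp4, 74.0% for Igfbp7, 73.2% for Igfbp3 and 58.8% for Igfbp5, against a median of 52.4%.

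Levels of the binding proteins differed between classes. Among the named neural classes at P5, Igfbp2 was highest in AS-like cells: its level was 889 CPM in AS-like cells, with a 95% Poisson interval of 874 to 904 that, like all intervals given for counts, covers counting error only. It was 377 CPM in oligodendrocyte precursor (OPC)-like cells, 271 in ependymal (EP)-like cells, 175 in cycling neural progenitor (NPC)-like cells and 160 (150 to 170) in NSC-like cells. AS-like cells thus held 5.57 times (5.21 to 5.95) the level of NSC-like cells. Immature neurons were lower, at 51.2 CPM in IMN1-like and 91.6 CPM in the more mature IMN2-like cells. Vascular cells, in which no Igfbp2 was seen at later ages beyond 6.24 CPM in PC-like and vascular smooth muscle (VSMC)-like cells, read 74.0 and 68.7 CPM at P5. The P5 file holds no barcode under 1495 UMIs, so free RNA could not be measured at that age, and the IMN1-like level at P5 is below this vascular reading. Fibroblast (FB)-like cells had the highest pooled level, 2727 CPM over 38 cells of all ages.

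Igfbp3, which forms the main IGF carrier in blood, was higher in OPC-like than in NSC-like cells at P5. It read 80.9 CPM (74.0 to 88.2) in OPC-like cells and 4.71 CPM (28 UMIs) in NSC-like cells, a ratio of 17.2 (11.7 to 26.1). The few OPC-like cells of the adult, 32 at 12w and 9 at 24w, read 208 and 284 CPM from 18 and 7 UMIs. AS-like cells had 9.02 CPM at P5. EC-like cells had 5 UMIs at 12w and 5 at 24w, of which free RNA predicts 0.126 and 0.102. No UMI of Igfbp3 was found in 4260 PC-like cells, which allows a level of up to 0.345 CPM (3 UMIs of the pooled total).

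Igfbp4, an inhibitory binding protein cleaved by PAPP-A, was spread over neural and vascular cells at P5. It was highest in FB-like cells, 991 CPM in 18 cells, then in endothelial (EC)-like cells, 479 CPM in 12 cells, microglia (MG)-like cells, 308 CPM in 19 cells, and PC-like cells, 288 CPM. AS-like cells had 70.0 CPM, NSC-like cells 48.2 and NPC-like cells 36.2, while the immature neuron classes had 10.8 and 11.1 CPM. PC-like cells held 5.96 times (4.83 to 7.34) the level of NSC-like cells.

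Igfbp5, which binds to the extracellular matrix, was slightly lower in AS-like cells than in their NSC-like neighbours at P5, 70.3 CPM (66.3 to 74.5) against 86.4 CPM (79.1 to 94.2). Progenitors and neurons had less, with 23.8 CPM in NPC-like, 4.73 in IMN1-like and 14.1 in IMN2-like cells. The highest pooled level was in interneuron (IN)-like cells, 154 CPM over 87 cells. AS-like cells were uneven: at P5 the cluster led by Serpinf1, Aqp4 and Myoc read 133 CPM and the clusters led by Slc7a10 and Gjb6 and by S100b and Acaa2 read 28.0 and 32.6 CPM. The order was the other way for Igfbp2, at 543 CPM in the first of these clusters and 1138 and 955 CPM in the other 2.

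Igfbp7 was vascular. At P5 it read 4130 CPM in PC-like cells, 3818 in VSMC-like cells and 2680 in EC-like cells, while NSC-like cells had 27.7 CPM and AS-like ones 24.6, and PC-like cells held 149 times (127 to 176) the level of NSC-like cells. All 104 PC-like cells of P5 had at least 1 UMI.

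The ligands were nearly absent from the sorted neural cells. Igf1 had 16 UMIs in all libraries together, 10 of them at P5, and microglia-like cells, 25 in all, had 2 of these. Igf2 stood at 1.34 CPM (NSC-like) and 1.67 CPM (AS-like) at P5 and was found in mural and fibroblast cells: 180 CPM in PC-like, 64.6 in VSMC-like and 249 in FB-like cells. Of the receptors, Igf1r was at a like level in all 5 neural classes at P5, from 31.4 CPM in AS-like to 43.8 in IMN2-like cells, and was highest in EC-like cells, 391 CPM (347 to 438) over all ages. Igf2r was lower in NSC-like and NPC-like cells, 8.91 CPM in each, than in PC-like cells, 50.8 CPM, and EP-like cells, 32.7 CPM.

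**Figure D1:**
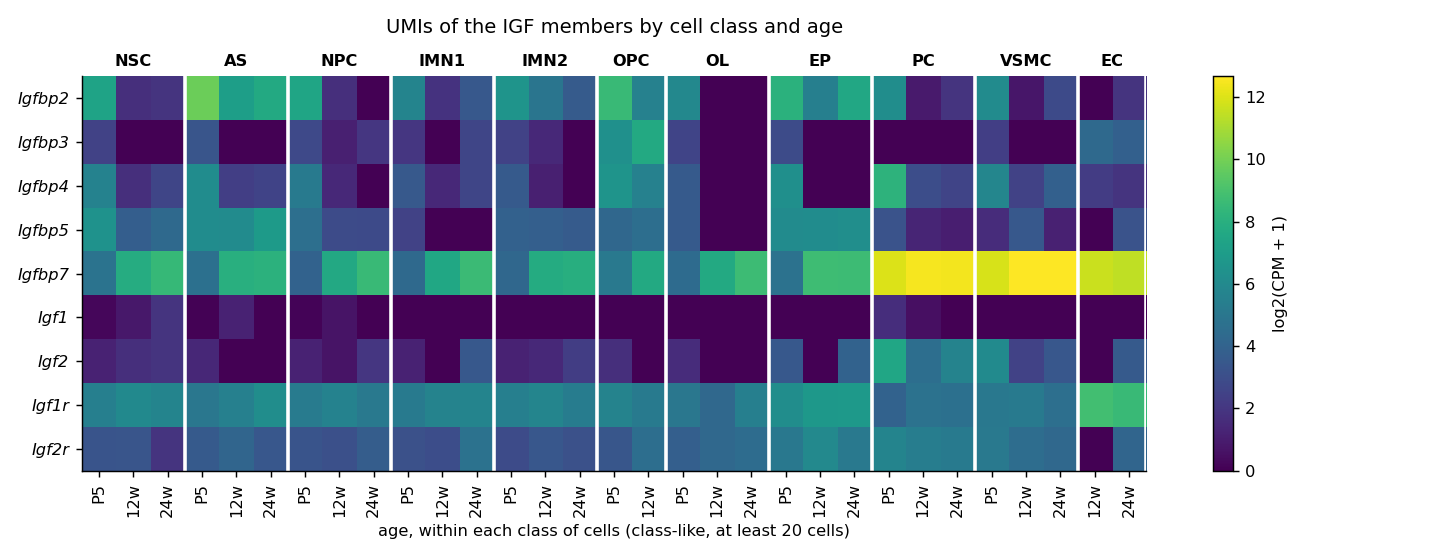
Level of the 9 members, as log2(CPM + 1) of pooled UMIs (colour), in each class and age with at least 20 cells (columns). Igfbp7 is bright in the vascular classes PC, VSMC and EC, Igfbp2 in AS-like cells at P5, and the Igf1 row is dark in every class shown.

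Igfbp2, Igfbp4 and Igfbp5 were each more than 2-fold lower in NSC-like cells at both adult ages than at P5. Igfbp7 was higher, at a level of which free RNA predicts 101% (12w) and 99.6% (24w). A gene was counted as different when its CPM in a class was at least 2-fold away from the P5 value, to the same side at 12w as at 24w, given 20 or more UMIs on the higher side and 0.5 UMIs added to each count. In NSC-like cells 7 of 9 members could be compared, of which 4 were lower and 1 higher, while among 11111 genes compared 5.49% were lower and 3.18% higher. The 4 were Igfbp2, Igfbp3, Igfbp4 and Igfbp5, but Igfbp3 started from 28 UMIs (4.71 CPM), and its 0 UMIs allow up to 2.30 CPM (3 UMIs) at 12w and 8.05 CPM at 24w, which is above its P5 level. Over 3387 well measured genes the median log2 difference was 0.10 for 12w and 0.18 for 24w.

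In AS-like cells 8 members could be compared, 3 of them lower and 1 higher, beside 6.05% and 2.28% of 12405 genes. In NPC-like cells 3 of 7 were lower and 1 higher (4.54% and 1.56% of 11621 genes). IMN1-like cells had 1 of 4 lower and 1 higher (2.28% and 1.41% of 8424 genes), and IMN2-like cells 2 of 5 lower and 1 higher (2.52% and 1.74% of 9151 genes). In the mural cells no member was higher: 3 of 6 were lower in PC-like cells (3.84% of 9638 genes lower, 16% higher) and 3 of 4 in VSMC-like cells (6.69% of 5818 genes lower, 17.1% higher). Igfbp2 was lower in all 7 classes by this rule. In PC-like, VSMC-like and IMN1-like cells its P5 level, from 35, 34 and 119 UMIs, cannot be told apart from free RNA, which could not be measured at P5. Igfbp7 was the member that was higher in each of the 5 neural classes, and in 0 of them with predicted free RNA subtracted at 12w and 24w.

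For Igfbp2 in NSC-like cells, the count went from 950 UMIs at P5 to 3 and then 1, which is 160, 2.30 (0.473 to 6.71) and 2.68 (0.0680 to 14.96) CPM. The intervals of the adult ages lie far below P5 and overlap each other. The P5 level was 69.5 times that of 12w (23.7 to 338) and 59.5 times that of 24w (10.6 to 2352). Free RNA in the droplets, estimated from near-empty droplets, would alone give 1.69 CPM at 12w and 3.70 CPM at 24w, so the adult levels in NSC-like cells cannot be told apart from background. NPC-like cells had 175, 2.30 and 0 CPM (1730, 4 and 0 UMIs), and IMN1-like cells 119, 3 and 2 UMIs. IMN2-like cells still had Igfbp2 at 12w, with 272, 51 and 3 UMIs at the 3 ages. Their 51 UMIs lay in 40 of 434 cells, and free RNA predicts 2.53 of them. P5 was 3.09 times (2.29 to 4.26) above 12w and 7.94 times (2.69 to 38.7) above 24w in IMN2-like cells.

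AS-like cells kept Igfbp2 at a lower level: 14395, 102 and 42 UMIs gave 889, 138 (112 to 167) and 206 (148 to 278) CPM, of which free RNA accounts for 1.61 and 3.67 CPM. At 12w AS-like cells held 60.1 times (19.99 to 296) the level of NSC-like cells, a ratio to 3 UMIs of which free RNA predicts 2.204. Pooled CPM does not tell fewer cells with the transcript from less of it per cell, so cells were also thinned to 1000 UMIs each. A UMI of Igfbp2 was then found in 54.0% (P5), 7.86% (12w) and 10.8% (24w) of AS-like cells, and in 12.5%, 0.272% and 0% of NSC-like cells. Without thinning the shares in AS-like cells were 87.1%, 12.7% and 12.2%, at median depths of 4715, 2982 and 2504 UMIs. In PC-like cells, which serve as the comparison, the unthinned shares were 26.0%, 0.165% and 0.576%, at 4386, 1841 and 2027 UMIs. The adult signal was concentrated: 29 of 229 AS-like cells had a UMI at 12w, with a median of 3 each, and 8 cells held 50% of the 102 UMIs. These UMIs lay mostly in the cluster led by Slc7a10 and Gjb6, at 173 CPM at 12w, while the cluster led by S100b and Acaa2, 955 CPM at P5, had no UMI in 41 cells at 12w or 13 at 24w.

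An unnamed cluster led by haemoglobin genes, with the astroglial genes Slc7a10 and Apoe and Igfbp2 itself among its leading genes, read 1811 CPM of Igfbp2 at P5, above the AS-like level, and 142 and 146 CPM at 12w and 24w. It held 1070 cells, 941 of them of P5. Joining this cluster to the AS-like cells left all counts of lower and higher members in AS-like cells the same.

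Igfbp4 was counted as lower in 6 of 7 classes, all but IMN1-like cells; in IMN2-like cells the 0 UMIs at 24w allow up to 11.5 CPM, above the P5 level of 11.1 CPM. NSC-like cells had 287, 3 and 2 UMIs, or 48.2, 2.30 and 5.37 CPM, AS-like cells 70.0, 4.06 and 4.90 CPM and NPC-like cells 36.2, 1.73 and 0 CPM. In PC-like cells, where the adult counts are larger, the P5 level of 288 CPM compares with 6.94 (4.75 to 9.80) for 12w and 4.97 (2.95 to 7.86) for 24w, so P5 was 41.4 times (28.0 to 63.0) and 57.9 times (35.3 to 101) higher. The 2 adult intervals overlap and neither comes near P5.

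Igfbp5 behaved differently in NSC-like and AS-like cells. In NSC-like cells 514, 17 and 7 UMIs gave 86.4, 13.01 (7.58 to 20.8) and 18.8 (7.55 to 38.7) CPM, with P5 6.64 times (4.11 to 11.5) above 12w and 4.60 times (2.22 to 11.5) above 24w. In AS-like cells the levels were 70.3, 69.0 (51.4 to 90.7) and 118 (75.4 to 175) CPM, so 12w was 0.981 times (0.726 to 1.30) and 24w 1.67 times (1.07 to 2.50) P5. The adult UMIs lay in 29 of 229 AS-like cells at 12w and 14 of 74 at 24w. The highest cell held 13 of 51 UMIs at 12w and 6 of 24 at 24w. The intervals do not cover this unevenness between cells. Divided by the NSC-like level, the AS-like level was 0.814 at P5 (0.732 to 0.905), 5.30 at the age of 12w (3.01 to 9.79) and 6.26 by 24w (2.62 to 17.2). The mix of AS-like clusters changed with age, and within the largest of them, led by Slc7a10 and Gjb6, Igfbp5 read 28.0, 46.3 and 87.9 CPM, with log2 differences of 0.75 and 1.70 from P5. The cluster led by Serpinf1 and Pla2g3 read 133, 248 and 342 CPM, the adult values from 27 and 7 cells. The cluster led by S100b and Acaa2 read 32.6 CPM at P5 and had no UMI in 41 and 13 adult cells. Cells of that cluster had a median of 1925 UMIs over all ages, so so few adult cells cannot show a lower level. EP-like cells read 67.5, 70.0 and 75.1 CPM in 295, 34 and 61 cells. Their adult totals of 114255 and 266368 UMIs leave a wide counting error.

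**Figure D2:**
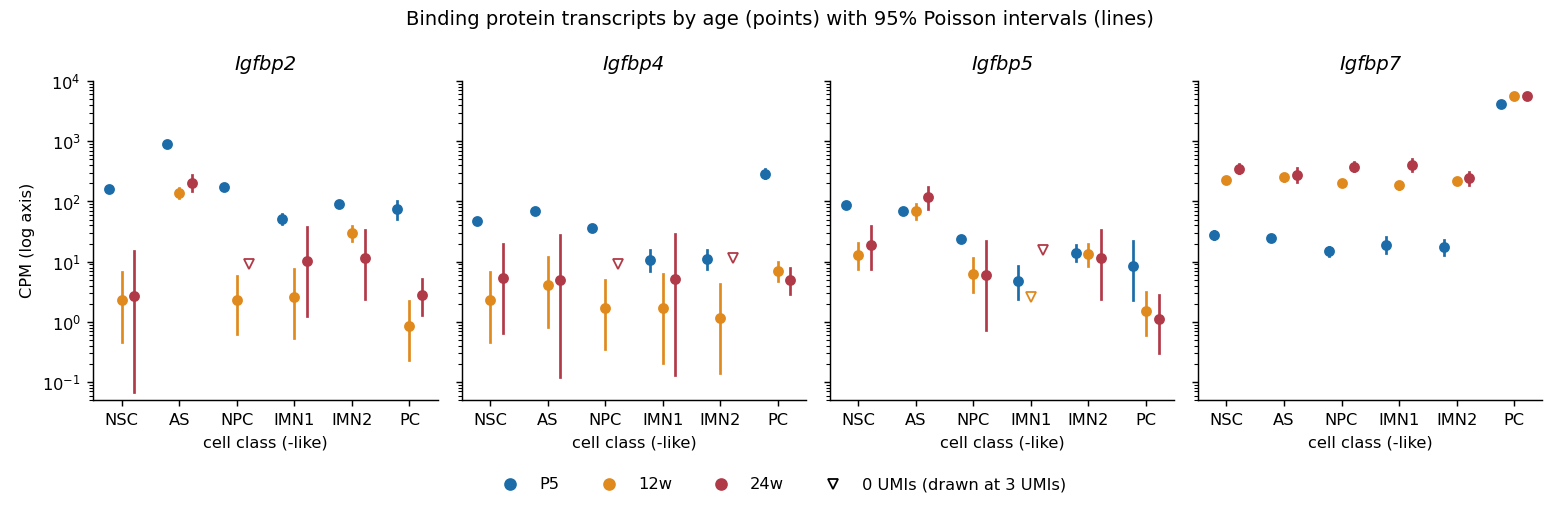
CPM on a log axis of Igfbp2, Igfbp4, Igfbp5 and Igfbp7 in 6 classes at P5, 12w and 24w (1 library each), with 95% Poisson intervals for counting error as lines and open triangles at the level of 3 UMIs where 0 were found. Igfbp2 is lower after P5 in each class shown, Igfbp5 lies between 69.0 and 118 CPM in AS-like cells at all ages, and Igfbp7 is higher after P5 in the 5 neural classes.

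Igfbp7 was higher after P5 in the 5 neural classes, and the level predicted from near-empty droplets was close to the measured one. In NSC-like cells 165, 295 and 131 UMIs gave 27.7, 226 (201 to 253) and 352 (294 to 417) CPM, 8.14 times (6.71 to 9.91) and 12.7 times (10.0 to 16.05) P5. AS-like cells read 24.6, 252 and 279 CPM, NPC-like cells 14.9, 200 and 379, IMN1-like cells 18.9, 187 and 399, and IMN2-like cells 17.5, 219 and 246. Droplets of 10 to 100 UMIs read 2541 CPM of Igfbp7 at 12w and 3141 CPM at 24w. From PC, VSMC and EC markers alone, 8.995% of the UMIs of NSC-like cells at 12w and 11.2% at 24w were estimated to be free RNA. This predicts 229 and 350 CPM of Igfbp7, 101% and 99.6% of the measured level. Over the 5 neural classes the prediction ranged from 87.0% to 111% of the measured level at 12w and from 94.8% to 127% at 24w. With the predicted free RNA taken out at 12w and 24w, Igfbp7 was higher in 0 of the 5 neural classes by the same rule. A vascular cell caught in the same droplet would raise these markers and Igfbp7 alike, so free RNA and such droplets cannot be told apart. At 24w the UMIs were uneven: 4 of 45 NPC-like cells held 50% of 125 UMIs, and 3 of 33 IMN1-like cells held 50% of 77. The PC markers summed to 290 (P5), 1418 (12w) and 2598 CPM (24w) within NSC-like cells. The shares of thinned NSC-like cells with a UMI of Igfbp7 were 2.97%, 22.9% and 24.5%. In PC-like cells, where Igfbp7 is a main transcript, the levels were 4130, 5726 and 5570 CPM, 1.39 times (1.32 to 1.45) and 1.35 times (1.29 to 1.41) P5.

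**Figure D3:**
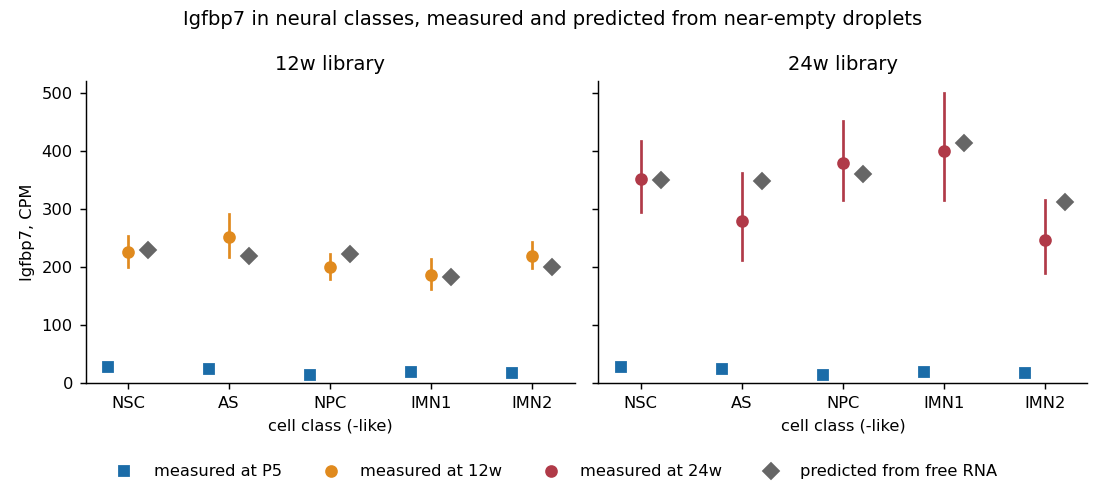
CPM of Igfbp7 in 5 neural classes at 12w (left) and 24w (right) with 95% Poisson intervals, beside the P5 level (squares) and the level predicted from near-empty droplets (diamonds). The measured levels of 187 to 399 CPM lie close to the predicted ones, and the P5 levels are at most 27.7 CPM.

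Igfbp3 went from 146 UMIs in AS-like cells at P5 (9.02 CPM) to 0 at both adult ages. A count of 0 allows up to 4.06 CPM (3 UMIs) at 12w and 14.7 CPM at 24w, so a lower level was not detectable at the depth of 24w. Igf2 was lower in mural cells, with 180, 22.6 (18.4 to 27.3) and 49.98 (42.96 to 57.8) CPM in PC-like cells and 64.6, 4.73 and 9.98 CPM in VSMC-like cells. The 2 adult intervals in PC-like cells do not overlap, with 24w above 12w. Of the receptors, Igf1r read 43.5, 62.7 (49.9 to 77.9) and 51.0 (30.7 to 79.6) CPM in NSC-like cells, 1.44 times (1.11 to 1.86) and 1.17 times (0.694 to 1.87) P5, and reached 2-fold at both ages in none of the 6 classes where it could be compared. In AS-like cells Igf1r was 2.34 times (1.30 to 3.904) P5 at 24w. Igf2r in NSC-like cells had 53, 12 and 1 UMIs, too few at 24w to show a difference.

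Other genes of the IGF system, 20 in the list used, and of signalling downstream of the receptor, 32 in the list, were counted by the same rule. In NSC-like cells 1 of 6 other system genes was higher and 0 lower, and 0 of 29 signalling genes were counted in either direction, beside 3.18% higher and 5.49% lower of all genes. The 1 gene was Htra1, a secreted protease that cleaves binding proteins, with 197 CPM (P5), 489 CPM (12w, 452 to 528) and 609 CPM (24w, 533 to 694). Free RNA was predicted for the members only, so its part in the Htra1 levels was not tested. In AS-like cells Htra1 read 493, 2018 and 1692 CPM, and it was the 1 of 9 other system genes that was higher there, with 0 lower, while 3 of 30 signalling genes were lower and 0 higher, beside 2.28% higher and 6.05% lower of all genes. Other system genes were lower in NPC-like cells (3 of 9, beside 4.54% of all genes) and IMN1-like cells (2 of 7, beside 2.28%), with 0 higher in either. In PC-like cells 2 of 8 were higher and 0 lower, with 3 of 27 signalling genes higher and 1 lower, and in VSMC-like cells 1 of 3 was lower and 0 higher, with 2 of 18 signalling genes higher and 0 lower, beside 16% (PC-like) and 17.1% (VSMC-like) of all genes higher and 3.84% and 6.69% lower. The 29 signalling genes in NSC-like cells had a median log2 difference of -0.16 (12w) and 0.09 (24w).

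The genes whose pattern was most like that of a binding protein were sought by Pearson's r of log2(CPM + 10) over 27 class and age groups of at least 50 cells, among 12171 genes. The groups share libraries and depth, so r is a description. For Igfbp2 these were Spsb4 (r = 0.91), Ednrb, the endothelin receptor B (r = 0.89), and Chrdl1, a secreted BMP antagonist (r = 0.89). For Igfbp4 they were Gpx7, Tomm5 and Dapk2 (r from 0.80 to 0.82), and for Igfbp5 Mgat5, Rassf2 and Fmn2 (r from 0.79 to 0.86). For Igfbp7 they were Gng11, Mgp and Car4, with r from 0.98 to 0.99.

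The scATAC-seq gave a readout of the same genes that the choice of members did not use. It held 8788 (P5), 12638 (12w) and 6041 (24w) cells, and classes were transferred from the scRNA-seq of the same age, with 380, 429 and 170 cells taken as NSC-like and 1542, 185 and 18 as AS-like. The marker check placed the summed AS, NSC, NPC and IMN2 markers highest in their own class at P5 and 12w, while those of IMN1 were highest in NPC-like cells at 12w and at 24w (717 counts per 1000000 against 685 in IMN1-like cells, of which 0 of 41 reached a transfer score of 0.7), and AS-like cells at 24w were too few to use. Transfer was weak elsewhere too: 3 of 150 IMN2-like cells at 24w and 23 of 205 IMN1-like cells at P5 reached a score of 0.7. Values are counts in the peaks at the start site of a gene per 1000000 counts of the class. Within 1 library the peaks are the same for all classes. Between ages they are not: the peaks at the start sites covered 4655, 3235 and 2045 bases for Igfbp2, 5827, 1996 and 1740 for Igfbp3, 4317, 4501 and 2547 for Igfbp4, 6827, 7555 and 7235 for Igfbp5, and 2012, 10745 and 10817 for Igfbp7, so values per kb are given beside the comparisons of ages.

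At P5 the start site of Igfbp2, shown above with its 3 GC boxes, was most open in AS-like cells among NSC-, AS-, NPC-, IMN1-, IMN2- and OPC-like cells, the classes measured with at least 30 cells at that age: 54.3 counts per 1000000 (52.1 to 56.5), against 35.9 in OPC-like, 24.8 in IMN2-like, 16.3 in NPC-like and 12.8 (10.9 to 14.9) in NSC-like cells. AS-like cells thus held 4.24 times (3.62 to 4.99) the counts of NSC-like cells, with an RNA ratio of 5.57 in the same direction. At 12w the counts were 8.999 (6.40 to 12.3) in AS-like, 6.12 in NSC-like and 4.83 in PC-like cells, and IMN2-like cells, at 21.2, were then above them. IMN1-like cells, at 11.9, and NPC-like cells, at 9.45, lay within the AS-like interval. The ratio of AS-like to NSC-like cells at 12w was 1.47 (0.977 to 2.18), an interval that includes 1. Per kb of peak, AS-like cells went from 11.7 at P5 to 2.78 at 12w, and NSC-like cells read 2.75, 1.89 and 2.43 at the 3 ages. The drop of the total in NSC-like cells, from 12.8 to 6.12 and 4.97, is thus smaller per kb. Regions were compared where each library had a peak and both ages had at least 20 counts. Among these 63062, the median ratio of 12w to P5 in NSC-like cells was 0.959, and 5% were below 0.483. The Igfbp2 start site read 0.477. A region sums all its merged peaks, while a start site counts only peaks that touch it, so these values are unlike measures.

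Among the same classes the start site of Igfbp3 was most open in OPC-like cells at P5, at 93.6 counts per 1000000 against 16.2 in NSC-like cells, a ratio of 5.79 (5.04 to 6.67). At 12w the ratio was 21.5 (14.5 to 32.5), from 70 OPC-like cells, of which 8 reached a transfer score of 0.7. NSC-like cells had 16.2, 2.52 and 1.44 counts per 1000000 at the 3 ages, or 2.77, 1.26 and 0.826 per kb. AS-like cells had 35.6 at P5 and 1.38 (0.508 to 3.01) at 12w, or 6.12 and 0.694 per kb. At P5 the start-site peak was the only peak over the gene with 2 kb upstream, while 12w and 24w had 3. Start-site ratios to P5 were 0.156 and 0.0889 in NSC-like cells, and 0.0388 in AS-like cells at 12w. Over the gene with 2 kb upstream they were 0.388 and 0.315 in NSC-like cells, and 0.168 in AS-like cells. The size of the drop thus depends on the peaks counted. IMN2-like cells had totals of 45.4, 22.5 and 22.3, lower after P5, and 7.79, 11.3 and 12.8 per kb, higher after P5, so the direction depends on the peak width. Their ratios of totals to P5 were 0.496 and 0.490 at the start site, and 0.629 and 0.655 over the gene with 2 kb upstream. The 5th percentile of regions was 0.541 and 0.594. A region sums all its merged peaks, so the start-site ratios cannot be placed among the regions.

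At Igfbp5, whose peaks had nearly the same width at all ages, values were lower after P5 in NSC-like cells. NSC-like cells read 86.4 (81.4 to 91.6), 52.7 (48.8 to 56.8) and 42.5 (38.0 to 47.3) counts per 1000000, or 12.7, 6.97 and 5.87 per kb. AS-like cells read 66.0 at P5 and 77.1 (69.0 to 85.8) at 12w, or 9.67 and 10.2 per kb, and NPC-like cells 61.7, 72.8 and 89.98, or 9.03, 9.64 and 12.4 per kb. The NSC-like ratios to P5 were 0.610 and 0.492, and the NPC-like ones 1.18 and 1.46. All lay between the 5th and 95th percentile of regions in that class and age, though regions sum merged peaks and are an unlike measure. The ratio of AS-like to NSC-like cells was 0.764 (0.713 to 0.820) at P5 and 1.46 (1.28 to 1.67) at 12w. Both ratios lie on the same side of 1 as those of the RNA, 0.814 and 5.30. For NPC-like over NSC-like cells this held at P5 but not at 12w, where the start site gave 1.38 (1.24 to 1.54) and the RNA 0.487 (0.206 to 1.10). The RNA of NPC-like cells was lower after P5, at 0.266 and 0.255 times P5 from 235, 11 and 2 UMIs, while their start-site counts were higher.

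Igfbp4, with a TATA box in the window shown above, had 32.6, 18.7 and 12.8 counts per 1000000 in NSC-like cells, or 7.54, 4.14 and 5.03 per kb, and 37.6 and 22.6 in AS-like cells at P5 and 12w, or 8.71 and 5.02 per kb. The Igfbp7 start site, with its 4 GC boxes, was open in mural cells: 117 counts per 1000000 (115 to 119) in PC-like and 139 in VSMC-like cells at 12w, and 111 and 132 at 24w. NSC-like cells read 14.6 (12.6 to 16.8), 18.7 (16.4 to 21.2) and 16.2 (13.5 to 19.3), 1.28 times (1.06 to 1.56) and 1.11 times (0.880 to 1.40) P5. Per kb they read 7.24, 1.74 and 1.498, so the direction depends on the peak width, which was 2012 bases at P5 and 10745 and 10817 later. In the other neural classes the totals were above P5 and the values per kb below it. Summed accessibility of the PC markers was also above P5 in these cells. It went from 320 counts per 1000000 at P5 to 503 and 422 in NSC-like cells, and from 280 to 540 (12w) in AS-like cells. In the other 3 classes it went from between 305 and 342 to between 463 and 578. These sums take all peaks called in each library alone, with no value per kb, so the peaks counted differ between ages. Their part in the Igfbp7 totals was not tested. The ratio of totals to P5 was 1.36 in AS-like cells at 12w, 1.34 and 3.38 (2.62 to 4.33) in NPC-like cells, 1.80 and 1.82 in IMN1-like cells and 1.76 and 1.99 in IMN2-like cells. Per kb, AS-like cells read 8.75 at P5 and 2.23 at 12w, NPC-like cells 5.42, 1.36 and 3.40 at the 3 ages, IMN1-like cells 5.39, 1.82 and 1.83, and IMN2-like cells 5.83, 1.92 and 2.16. The PC-like counts were 6.28 times (5.53 to 7.16) those of NSC-like cells at 12w. Igf1r start sites were alike in NSC-like cells at the 3 ages, at 0.999 and 0.956 times P5, or 19.5, 17.9 and 17.3 per kb.

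**Figure D4:**
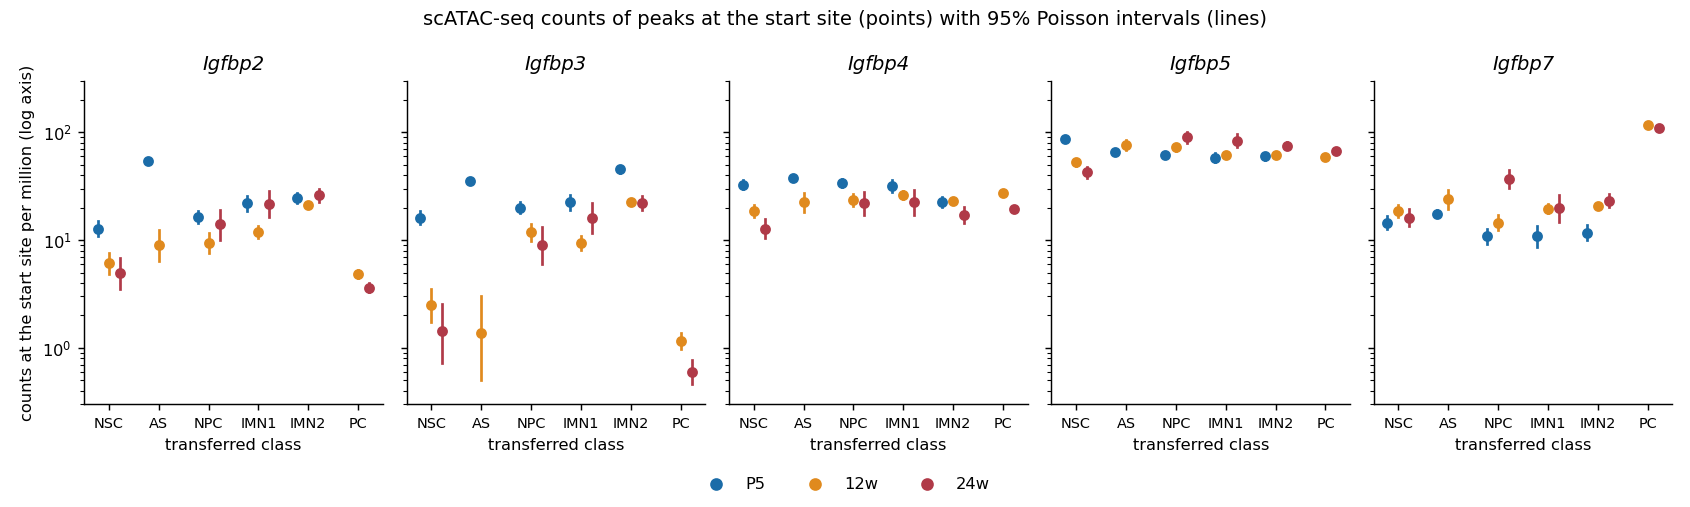
scATAC-seq counts in peaks at the start site per 1000000 counts of the class, on a log axis, for 5 binding proteins in classes of at least 30 cells, with 95% Poisson intervals; peak widths differ between ages. Igfbp2 is high in AS-like cells at P5, Igfbp7 in PC-like cells, and Igfbp5 is lower after P5 in NSC-like cells, from 86.4 to 42.5.

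In cultured NSCs, the targeted gene was checked first. The libraries labelled Ctrl_3, Setd8KD_1, Setd8KD_2 and Setd8KD_3 held 154, 143, 143 and 36.4 transcripts per 1000000 (TPM) of Setd8. The libraries labelled Setd8KD_1 and Setd8KD_2 go against their labels, and the headings of the study's table of these values name them as controls. The comparison therefore set 3 libraries headed as controls against the 1 headed as KD, the library labelled Setd8KD_3, where Setd8 was 24.8% of the control mean (log2 difference -1.98, SE 0.07, limma adjusted p = 0.000113). The single KD library was assumed to vary like the controls, and nothing says that the controls come from separate cultures, so p-values measure only the spread between these libraries. By limma's moderated test 2545 genes rose (20%) and 2755 fell (21.7%) of 12703 tested, at a Benjamini-Hochberg adjusted p under 0.05 over all genes.

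The cells had the markers Sox2, 240 TPM, and Nes, 216 TPM, and 5 of the 10 NSC markers were under 1 TPM (Riiad1, Vnn1, Lpar1, Rhcg and Wnt8b). In the order Ctrl_3, Setd8KD_1, Setd8KD_2 and Setd8KD_3, the 10 NSC markers summed to 516, 529, 531 and 475 TPM. The 9 AS markers, 7 of them at 1 TPM or more, summed to 721, 720, 723 and 648 TPM. The 10 markers of cycling progenitors summed to 1380, 1400, 1379 and 637 TPM in the 4 libraries, so they were lowest in the KD library, and the part of this in the results below was not tested.

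TPM are per length, so the members can be ranked. Igfbp2 had a control mean of 3971 ± 117 TPM (SD, n = 3), rank 9 of 24062 genes, and Igfbp3 2135 ± 27 TPM (SD, n = 3), rank 33. Igfbp4 followed at 126 TPM and Igfbp5 at 27.0. Igf2r and Igf1r, at 14.4 and 13.4 TPM, overlapped in their control libraries, and were followed by Igfbp7 at 9.98 TPM, Igf2 at 1.10 TPM and Igf1 at 0.0580 TPM. Igfbp3, at 4.71 CPM in NSC-like cells of the DG at P5, was thus the member with the next highest level in culture, and Igfbp7 was low in a culture where the 8 PC markers summed to 2.40 TPM at most.

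Of 8 members tested, 5 rose in the KD library and 0 fell by limma, beside 20% and 21.7% of all genes; 6 of the 8 and 6451 of the 12703 genes had an unadjusted p under 0.05. On recovered reads edgeR and DESeq2 each called 5 of these 8, with 0 lower, beside 6089 of 13628 and 4506 of 12952 genes called in either direction. These counts describe members chosen with values of these data known, and the median log2 difference was 0.46 for the 8 members and 0.00 for all genes. Igfbp3 read 2166, 2118 and 2122 TPM in the controls and 3755 TPM in the KD library. The KD value lies far above the narrow range of the controls (log2 difference 0.81, SE 0.05, limma adjusted p = 0.000156), though the call was lost with no filter on low values (adjusted p = 0.0639). Igfbp4 read 125, 130 and 123 TPM and 179 TPM in the KD library (log2 difference 0.51, SE 0.06, limma adjusted p = 0.00109). Igfbp2 read 3894, 3914 and 4106 TPM and 4403 TPM in the KD library; the KD value is outside the control range but did not pass the test (log2 difference 0.15, SE 0.05, limma adjusted p = 0.0581). It passed with a pseudocount of 0.1 TPM (adjusted p = 0.0482) and without the library labelled Setd8KD_2 (adjusted p = 0.0365), and its adjusted p was 0.957 with no filter on low values. Igfbp5, at 26.7, 25.6 and 28.7 TPM against 29.9 TPM, and Igfbp7, at 9.99, 10.9 and 9.05 against 9.35 TPM, did not pass either (limma adjusted p = 0.241 and 0.633). The 95% intervals of their log2 differences were -0.07 to 0.36 and -0.39 to 0.22.

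Both receptors rose, Igf2r with a call that depends on the filter. Igf2r read 12.1, 14.6 and 16.5 TPM in the controls and 26.1 TPM in the KD library (log2 difference 0.83, SE 0.16, limma adjusted p = 0.00742). Igf1r read 13.6, 13.2 and 13.2 TPM against 18.0 TPM (log2 difference 0.41, SE 0.09, limma adjusted p = 0.0125). The ligand Igf2 read 1.204, 1.22 and 0.883 TPM against 2.27 TPM (log2 difference 0.64 on the log2(TPM + 1) scale, SE 0.21, limma adjusted p = 0.0450). The Igf2 call was lost without the library labelled Setd8KD_1 (adjusted p = 0.0581) or Setd8KD_2 (adjusted p = 0.0774), and with a pseudocount of 0.1 TPM (adjusted p = 0.0654). With no filter on low values limma no longer called Igf2 (adjusted p = 0.126) or Igf2r (adjusted p = 0.160), while Igfbp4 and Igf1r kept their calls (adjusted p = 0.0367 and 0.0404). The antisense genes Igf2os and Airn overlap Igf2 and Igf2r, and whether the counting used the strand is not given in the sources used here. Igf1 was below the filter of a mean of 1 TPM, at 0.0436, 0.0705 and 0.0599 against 0.203 TPM, and edgeR on recovered reads, which tested it, called it higher (adjusted p = 0.0305).

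**Figure D5:**
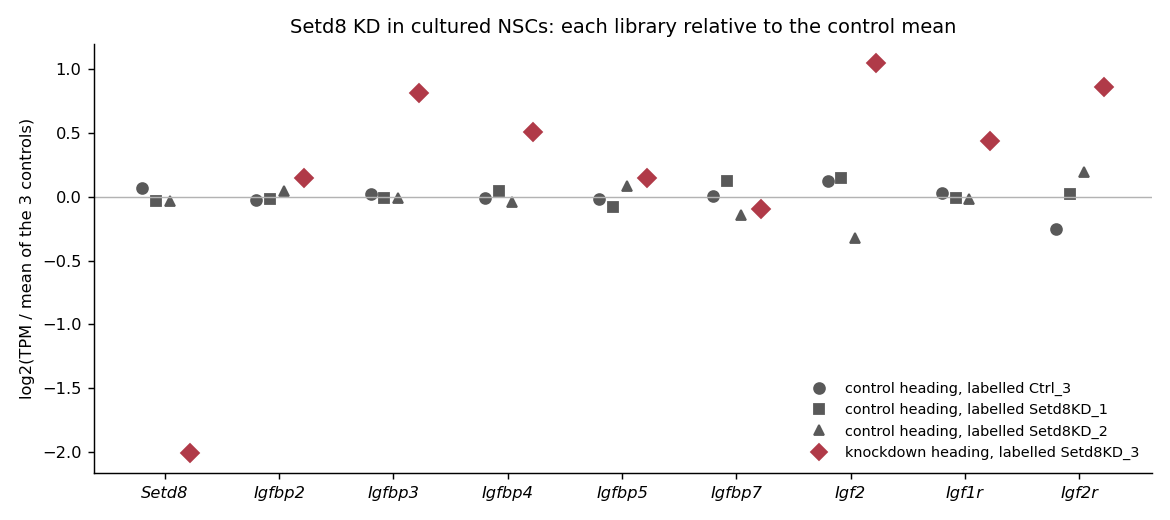
TPM of Setd8 and 8 members in each cultured NSC library as log2 of the ratio to the mean of the 3 control-headed libraries (grey, 1 marker per library; red diamonds for the KD-headed library). Setd8 is lowest in the KD library, and Igfbp3, Igf2, Igf2r, Igfbp4 and Igf1r lie above all 3 controls, with Igfbp2 and Igfbp5 just above them.

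Of the other IGF system genes, 9 were tested, 1 rose and 4 fell, beside 20% and 21.7% of all genes. Igf2bp2, which binds Igf2 mRNA, rose from a mean of 49.7 to 71.4 TPM (log2 difference 0.52, limma adjusted p = 0.00190). Stc1, an inhibitor of PAPP-A, fell by 0.50 and Grb14, an adaptor that restrains insulin receptor signalling, fell by 0.44 on the log2 scale (limma adjusted p = 0.0402 and 0.0119). The Stc1 call was lost by DESeq2 on recovered reads (adjusted p = 0.0647) and by limma without the library labelled Ctrl_3 (adjusted p = 0.0586) or Setd8KD_2 (adjusted p = 0.0875). Of 31 signalling genes tested, 3 rose and 3 fell, beside 20% and 21.7% of all genes, and the difference in shares was not tested. Pik3r1, the regulatory subunit of PI3 kinase, fell by 0.91 and the transcription factor Foxo4 by 0.93 on the log2 scale (limma adjusted p = 0.000614 and 0.000590), while the adaptor Irs1 rose by 0.57 (limma adjusted p = 0.00684). Among the other calls, outside the rule for named genes and named after their values were seen, Igf2bp3 and Ide fell, and Pdpk1 and Akt2 rose. With no filter on low values limma no longer called Stc1, Grb14, Igf2bp3, Ide, Irs1, Pik3r1 or Pdpk1 (adjusted p from 0.0523 for Pik3r1 to 0.201 for Stc1). Pdpk1 and Akt2 were not called without the library labelled Setd8KD_1 (adjusted p = 0.0568 and 0.0701), nor Pdpk1 without Setd8KD_2 (adjusted p = 0.0508).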

How the data were processed

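The authors deposited UMI counts per gene and barcode for scRNA-seq and counts per peak and barcode for scATAC-seq, made with Cell Ranger (2.2.0 for RNA) and Cell Ranger ATAC on mm10, with peaks called in each library alone. For cultured NSCs the authors deposited TPM per gene, from reads trimmed with Trimmomatic and aligned with STAR; the study's software list also names RSEM, with no step stated for it. The files titled Ctrl_1 and Ctrl_2 hold gene names and lengths and gave no values. The ChIP-seq and bulk ATAC-seq were not used here.

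The members and gene lists were chosen with earlier results of these data known. Barcodes had to reach 1000 UMIs and 500 genes, with a mitochondrial share of 10% or less; doublets were removed, and cells were integrated and clustered with Seurat 5.3.0 on 2000 variable genes and 30 dimensions at a resolution of 0.8, without the members. Clusters were named from fixed markers. Pooled UMIs of a class at an age were turned into CPM; their 95% intervals are exact Poisson, those of ratios exact binomial, and cover counting error only; with 1 library per age there was no test. Free RNA was taken from barcodes of 10 to 100 UMIs. scATAC-seq cells (3000 to 100000 counts) took the class of highest transfer score, at least 0.5. KD libraries were compared by limma 3.58.1 on log2(TPM + 1), genes of a mean of at least 1 TPM, two-sided, with Benjamini-Hochberg adjustment over all genes. On simulated data it recovered 11.3% of 1.5-fold and 65.7% of 2-fold genes, with 19 false calls of 12645 tested. The simulation changed far fewer genes than were called in the KD and used 1 fixed dispersion. Its rates therefore do not measure power or false calls in these libraries. Reads recovered from TPM, 20040076 to 21493347 per library, were whole within 0.05 for 100% of values under 200 and were tested with edgeR 4.0.16 and DESeq2 1.42.0 as alternatives. The design's main test assumed the table headings, not the titles, for KD groups. The named genes were the 9 members, Setd8, at most 6 other list genes called in the KD and at most 6 counted in NSC-like cells, and the 3 genes most like Igfbp2, Igfbp4, Igfbp5 or Igfbp7. Alternatives covered filters, pseudocount, tools, left-out libraries, doublets, depth, free RNA, scaling, largest clusters, transfer score and peak sets. A gene of the signalling list is counted but not reported here by name.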

Additional observations from a re-analysis of the deposited data

Results flagged for a closer look

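Accessibility over the whole Igfbp5 gene with 2 kb upstream moved in opposite directions after P5 in NSC-like and NPC-like cells of the scATAC-seq. In NSC-like cells the counts per 1000000 were 0.635 times P5 at 12w and 0.5003 times P5 at 24w, while in NPC-like cells they were 1.17 times P5 at 12w and 1.44 times P5 at 24w. Igfbp5 RNA was lower after P5 in both classes. It was 0.151 and 0.218 times P5 in NSC-like cells, and 0.266 and 0.255 times P5 in NPC-like cells, there from 11 and 2 UMIs. At the start site of Igfbp5 the ratios of both classes lay between the 5th and 95th percentile of regions, which sum merged peaks. There was 1 library per age, and the difference was not tested.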

How the results depend on the processing

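No paired analysis was possible because the label groups with TPM share only replicate number 3. In the KD, limma called 5300 genes, 5 members and 11 other IGF genes. With no filter on low values it called 2234, 3 and 5, without Igfbp3, Igf2 and Igf2r and with Igf1, then tested. With groups taken from the GEO titles, limma called 0 of each (86 genes, 0 members and 0 other IGF genes at an unadjusted p under 0.05; edgeR and DESeq2 also called 0 genes). edgeR on recovered reads called 17 other IGF genes, and 6089 genes in all against 4506 by DESeq2. Leaving out each control library gave 4026 to 5710 genes, 4 to 5 members and 9 to 12 other IGF genes, with the fewest genes without the library labelled Setd8KD_1. The cause of these differences was not tested.

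With predicted free RNA subtracted, 0 members were higher in each of the 5 neural classes, and 2 were lower in IMN1-like cells. Free RNA could not be measured at P5, so corrected adult levels were set against an uncorrected P5 level. The log2 ratio of Igfbp7 to P5 then turned to -6.05 (12w) and -3.21 (24w) in NSC-like cells, -3.16 (24w) in AS-like cells, -5.56 (12w) in NPC-like cells, -2.14 (12w) and -2.68 (24w) in IMN1-like cells and -3.05 (24w) in IMN2-like cells; these sizes depend on the 0.5 UMIs added. Leaving out cells of shared barcodes, and joining the haemoglobin-led cluster to AS-like cells, were chosen after seeing the data and changed no count of members. Of 180 scATAC-seq ratios recomputed, 42 moved beyond their counting interval, 27 of them with peaks within 1 kb of the start site. AS-like cells at 24w, 74 in scRNA-seq and 18 in scATAC-seq, limit what that age can show.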

Other observations

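FB-like cells, 38 in all, kept Igfbp2 at every age, with 2348, 3910 and 3338 CPM at P5, 12w and 24w, beside 991, 228 and 517 CPM of Igfbp4 and 249, 587 and 596 CPM of the ligand Igf2. These are 18, 11 and 9 cells from 1 library each. Among EP-like cells Igfbp2 read 271 CPM at P5, 43.8 (14.2 to 102) at 12w from 5 UMIs, and 195 (146 to 256) at 24w. Among the classes measured in scATAC-seq, the Igf1r start site was most open in EC-like cells at 12w and 24w, at 210 and 237 counts per 1000000 in 57 cells of each age, against 98.9 and 94.7 in NSC-like cells, and EC-like cells also had the highest pooled level of Igf1r RNA.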
